A study of Mus musculus with 21 samples.

Results

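The amino acid transporter families of the solute carrier genes were followed across mouse B-lineage cells: every probe set whose only platform gene symbol starts with Slc1a, Slc3a, Slc6a, Slc7a, Slc36a, Slc38a or Slc43a. The rule used names and no measured value. It found 125 of the 45037 probe sets that are not controls, for 63 of 18193 genes: 7 genes of the Slc1 family, 2 of Slc3, 21 of Slc6, 16 of Slc7, 5 of Slc36, 9 of Slc38 and 3 of Slc43. Not every gene taken in by its symbol carries amino acids. Slc36a1os, Slc6a19os and Slc7a6os are neighbours on the opposite strand of a carrier, Slc6a2, Slc6a3 and Slc6a4 carry monoamines, Slc6a8 carries creatine and Slc43a3 a purine base.

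Expression was measured on 21 Affymetrix arrays in 7 groups of 3, and the study's title pairs C/EBPβ with BLNK mutation in leukaemia of pre-B cells. The 4 marrow groups were sorted bone marrow cells positive for B220, which marks B-lineage cells; their sources were wild-type mice, Cebpb LAP transgenic mice, Blnk KO mice and Blnk KO/LAP tg mice. LAP is the activating form of C/EBPβ, a transcription factor, while BLNK serves as an adaptor of pre-B cell receptor signalling. The 3 groups of LB31, a preB-ALL line established from a Blnk KO mouse and grown with 5 ng/ml IL7, were transduced with an empty pMY retrovirus, the same vector with Blnk cDNA, or with a loss-of-function mutant Blnk cDNA named YF. The doubly changed mice and the line thus share the Blnk KO with the singly changed mice, and all 3 LB31 groups are 1 line. The promoter of the transgene, the age and strain of the mice and the timing of the cultures were not given. Nor do the labels say whether the 3 samples of a group were separate animals or cultures; the p-values reflect the spread among these samples alone, and that spread may be technical.

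Replicate arrays of a group correlated at 0.963 to 0.980 over probe sets, and no array pair was identical. The probe set for Cebpb with the higher mean read 5.43 ± 0.10 (SD, n = 3, log2) in wild-type and 10.05 ± 0.15 in LAP transgenic marrow, 5.02 ± 0.35 in Blnk KO and 9.90 ± 0.08 in Blnk KO/LAP tg marrow, and 10.22 ± 0.10 in empty-vector LB31. Its other probe set did not follow the transgene label, at 7.28 ± 0.23, 8.31 ± 0.99, 7.04 ± 0.64, 7.20 ± 0.39 and 4.62 ± 0.42 in the same groups. Compared with Blnk KO marrow, empty-vector LB31 was thus higher by the first Cebpb probe set, near the LAP groups, and lower by the second. Comparisons of the line with Blnk KO marrow below span this difference as well as that between line and marrow. The only Blnk probe set did not follow the labels, at 12.44 ± 0.09 in wild-type, 12.37 ± 0.24 in Blnk KO, 9.63 ± 0.02 in empty-vector and 8.56 ± 0.06 in BLNK LB31; where it lies relative to the deleted part or the cDNA is not known here, so it checks no label, and the groups are called knockout-labelled, doubly labelled and BLNK-labelled throughout. The third LAP transgenic array stood apart from its group, with summed signals of 62076 for 9 neutrophil markers, 19114 for 9 monocyte markers and 9827 for 6 erythroid markers, against 21721 to 30141, 6428 to 7975 and 2242 to 3949 on the other LAP arrays. B-lineage markers summed to 22613 to 35650 in marrow and 18974 to 21974 in LB31, where Rag1 was at or under the level of the dim-probe filter.

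Amino acid carriers fall into uptake systems that work together. The heavy chain encoded by Slc3a2 (CD98) brings light chains such as Slc7a5 (LAT1, large neutral amino acids including leucine), Slc7a11 (cystine) and Slc7a6 and Slc7a7 (basic amino acids exchanged for neutral ones) to the cell surface, and Slc7a5 exports glutamine that carriers such as Slc1a5 and Slc38a1 bring in. Slc38a9 and the Slc36 proteins sit largely on lysosomes, where Slc38a9 reports lysosomal arginine to the kinase complex mTORC1. Many plasma membrane carriers are targets of ATF4, a transcription factor made when amino acids are short, which binds amino acid response elements with other leucine zipper proteins. Lymphocytes take up glutamine and essential amino acids as they begin to divide.

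Promoter sequences are shown for 4 members, as examples among those that hold the element of ATF4 or the E-box of MYC-type factors. By signal Slc1a4 and Slc43a1 were higher and Slc36a1 lower in LB31 than in marrow, while Slc7a11 was hardly measured. Each window runs from 120 bases before to 30 bases after a RefSeq start, 5′ to 3′ on the gene's strand, on GRCm38.p6, with the matches in capitals. Slc1a4 lies at chr11:20332684-20332833 on the minus strand, Slc7a11 at chr3:50443584-50443733 on the minus strand, Slc43a1 at chr2:84840203-84840352 on the plus strand and Slc36a1 at chr11:55204220-55204369 on the plus strand. Capitals mark TTNCATCA on either strand in the upper pair and CACGTG in the lower pair.
Slc1a4: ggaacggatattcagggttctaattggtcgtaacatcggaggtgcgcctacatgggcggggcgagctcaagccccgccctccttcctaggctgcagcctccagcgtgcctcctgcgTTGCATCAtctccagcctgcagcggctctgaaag
Slc7a11: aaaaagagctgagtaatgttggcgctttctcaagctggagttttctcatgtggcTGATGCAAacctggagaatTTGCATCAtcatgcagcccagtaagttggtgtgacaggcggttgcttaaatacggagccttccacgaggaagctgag
Slc43a1: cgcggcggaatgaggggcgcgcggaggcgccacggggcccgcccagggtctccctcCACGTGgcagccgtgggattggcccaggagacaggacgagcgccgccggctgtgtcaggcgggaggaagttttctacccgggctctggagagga
Slc36a1: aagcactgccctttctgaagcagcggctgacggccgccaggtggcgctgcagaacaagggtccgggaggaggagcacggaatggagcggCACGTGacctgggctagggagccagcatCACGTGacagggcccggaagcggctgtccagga
Slc1a4 carries its match at position -4 relative to the start, and Slc7a11 has one on each strand, at -66 (minus) and -47 (plus). The E-box lies at -64 in Slc43a1 and at -31 and -3 in Slc36a1.

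Over 300-base windows from 250 before to 50 after each start, searched on both strands, TTNCATCA was present in 5 of the 67 windows of 46 member genes and in 3.97% of all 32851 windows. These 5 belong to Slc1a4, Slc7a11, Slc7a7 and Slc6a21. Unlike Slc1a4, Slc7a7 was lower in LB31 than in knockout-labelled marrow, so genes with the element had no common direction. CACGTG was in 9 member windows, among them Slc38a5 and Slc38a7, and in 7.15% of all windows. TGACGTCA, the cAMP response element, was in the window of Slc38a6 and in 1.79% of all; TTGCGCAA, the C/EBP palindrome, was in no member window and in 0.183% of all. A match describes letters and not a bound site.

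Values below are log2(signal + 4) after quantile normalization of all arrays together, so a difference of 1 is 2-fold on that scale and the change of a dim gene is understated. A gene is read through its probe set with the highest mean, and levels are compared within a probe set only. A probe set entered a fit if it lay above the 40th percentile of its own array, 4.06 on this scale, on at least 3 arrays; 81 member probe sets of 47 genes passed in at least one of the fits, and 44 passed in none. The 16 genes with no probe set above that filter were Slc1a2, Slc1a6, Slc36a1os, Slc38a4, Slc6a7, Slc6a11, Slc6a12, Slc6a14, Slc6a15, Slc6a16, Slc6a19os, Slc7a9, Slc7a12, Slc7a13, Slc7a14 and Slc7a15, whose highest reading on any array was 4.62. They are largely carriers known from brain, kidney, gut and placenta. A probe set was called at an adjusted p under 0.05 (limma with Benjamini-Hochberg adjustment over all probe sets of the fit, two-sided).

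The leukaemia line differed most from marrow. Of 81 member probe sets tested in empty-vector LB31 against knockout-labelled marrow, 22 were higher and 23 lower, or 55.6%, against 56.9% of all 33764 probe sets (29.3% higher and 27.6% lower). Against doubly labelled marrow, which shares those LB31 arrays, 25 were higher and 27 lower, or 64.2%, against 55.8% of all (28.7% and 27.1%). The members' median difference was 0.06 and 0.22, beside 0.08 for all probe sets in both. The share of carriers that differed was thus near that of all probe sets, and what follows is which carriers they were. The values as deposited put the median of all probe sets at -0.42 and -0.44 and the members' split at 13 higher and 31 lower and 12 higher and 34 lower, while median centring put that median at 0.23 and 0.22 and the splits at 23 and 23 and 25 and 23.

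Both chains of LAT1 and the basic amino acid carrier Slc7a1 were higher in the line. Slc7a5 read 9.79, 10.02 and 9.94 in empty-vector LB31, 7.55, 7.57 and 7.85 in knockout-labelled marrow and 8.29, 8.02 and 8.0 in doubly labelled marrow. The groups did not overlap, and every LB31 array lay above every marrow array. The difference from knockout-labelled marrow was 2.26 ± 0.15 (SE), or 4.79-fold (limma, adjusted p = 1.78e-11), and that from doubly labelled marrow was 1.82 ± 0.15. Its partner Slc3a2 read 9.82, 10.00 and 9.97 in the line and 8.35, 8.48 and 8.54 in knockout-labelled marrow. That is a difference of 1.48 ± 0.13, or 2.79-fold (adjusted p = 1.47e-09). Slc7a1 (CAT1), the main carrier of arginine and lysine in growing cells, read 10.42, 10.60 and 10.48 in the line and 9.03, 8.97 and 9.13 in knockout-labelled marrow, higher by 1.46 ± 0.09 (adjusted p = 9.29e-12). Its probe set 1454992_at was higher in the line as well, by 1.54 against doubly labelled marrow.

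**Figure D1:**
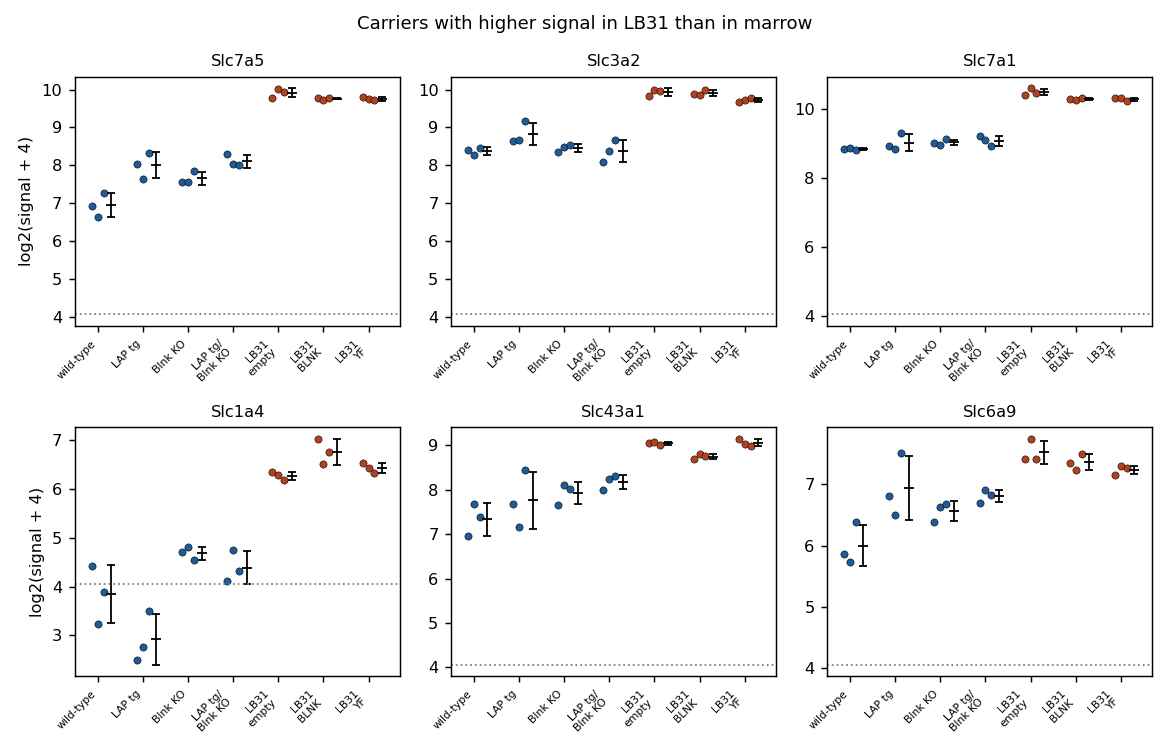
Signal of 6 carriers, log2(signal + 4) after normalization, on each array by group as labelled (blue, marrow; red, LB31), with the mean and SD of 3 arrays beside the points and a dotted line at the filter level of 4.06; each panel has its own axis range, and the axes do not start at 0. The LB31 arrays of Slc7a5 lie between 9.72 and 10.02, above all 12 marrow arrays.

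Slc1a4 (ASCT1, a carrier of serine, alanine and cysteine) was higher in LB31 by all 3 of its tested probe sets. By 1456003_a_at it read 6.34, 6.29 and 6.18 in the line and 4.70, 4.81 and 4.54 in knockout-labelled marrow, a difference of 1.59 ± 0.28 (limma, adjusted p = 4.62e-05), or 0.85 and still called on the deposited values. The other probe sets read 7.08, 6.94 and 6.98, and 6.28, 6.43 and 6.60, in the line, and 3.47 ± 0.54 and 2.92 ± 0.43 (SD, n = 3) in knockout-labelled marrow, where they lay under the filter level on all but 1 array. Both were called higher, and no fold is given against marrow signals that low. Slc43a1 (LAT3, a facilitated carrier of leucine and other branched amino acids) read 9.06, 9.08 and 9.02 in the line and 7.66, 8.11 and 8.01 in knockout-labelled marrow, a difference of 1.12 ± 0.21 (adjusted p = 1e-04), or 0.65 and still called as deposited. Against doubly labelled marrow the difference of Slc43a1 was 0.87 ± 0.21, which fell to 0.38 with an adjusted p of 0.15 on the values as deposited. Slc6a9 (GlyT1, glycine), named here after its values were seen, was higher by 0.96 ± 0.20 (adjusted p = 0.000216), a call lost on the deposited values (0.34). Slc7a6 (y+LAT2) was higher by 0.48 ± 0.11 and its probe set 1460541_at by 0.92; on the deposited values the first was 0.02.

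Members of the proton-coupled Slc36 family went both ways. Slc36a3, a carrier known from testis, read 5.46, 5.85 and 5.42 in the line and 4.55, 4.33 and 4.40 in knockout-labelled marrow, higher by 1.15 ± 0.29 (limma, adjusted p = 0.00162), or 0.43 with no call on the deposited values. Against doubly labelled marrow its difference of 0.96 was not called without doubly labelled array 1 (0.55, adjusted p = 0.079). Slc36a2, a carrier of proline and glycine in kidney, lay close to the filter level, at 4.90, 4.85 and 4.64 in the line and 4.04, 2.63 and 4.16 in knockout-labelled marrow. Its difference of 1.19 ± 0.50 (limma, adjusted p = 0.0461) was not called without knockout-labelled array 2 (0.69, adjusted p = 0.268). The same held without any of the 3 LB31 arrays, where it was 1.14 to 1.27. That call was also lost on the deposited values (0.66, limma adjusted p = 0.235) and with a pseudocount of 1 (1.52, 0.0657). It was lost without a filter (0.0629) or a trend (0.0595) too. Slc3a1, the heavy chain of the cystine carrier of kidney, read 3.84, 3.97 and 3.59 in the line and 2.31, 2.43 and 3.10 in doubly labelled marrow, all under the filter level. The difference of 1.19 ± 0.46 (limma, adjusted p = 0.034) lost its call without doubly labelled array 1 or 2 (1.03 and 1.09). The same held without LB31 array 1 or 2 (1.17 and 1.11). On the deposited values (0.90, limma adjusted p = 0.116) and with a pseudocount of 16 (0.51, 0.0525) it was not called either.

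Slc38a9, Slc36a4 and Slc36a1, known from lysosomes or other inner membranes, were lower in the line, whereas Slc38a7, a glutamine carrier of lysosomes, was higher than in doubly labelled marrow by 0.58 ± 0.21. Slc38a9 read 6.48, 5.93 and 6.24 in empty-vector LB31 against 8.68, 8.65 and 8.29 in knockout-labelled and 8.56, 8.09 and 8.36 in doubly labelled marrow. It was lower by 5.02-fold than in knockout-labelled marrow (log2 -2.33 ± 0.14, limma adjusted p = 2.53e-12), and its 7 probe sets were all lower, from -2.33 to -1.18. Slc36a4, a high-affinity carrier of proline and tryptophan linked to mTORC1, read 5.84, 5.40 and 5.86 in the line and 7.43, 7.36 and 7.48 in knockout-labelled marrow. It was 3.3-fold lower (-1.72 ± 0.16, adjusted p = 4.37e-09). Slc36a1 (PAT1), which exports small amino acids from lysosomes, read 6.21, 5.89 and 5.98 in the line and 6.99, 6.74 and 6.60 in knockout-labelled marrow. Its difference was smaller, at -0.75 ± 0.14 (adjusted p = 8.14e-05), and was -1.43 on the deposited values. None of these 3 genes overlapped between LB31 and either marrow group, but the share of all probe sets without overlap was not counted. Of all probe sets, 56.9% were called against knockout-labelled and 55.8% against doubly labelled marrow.

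**Figure D2:**
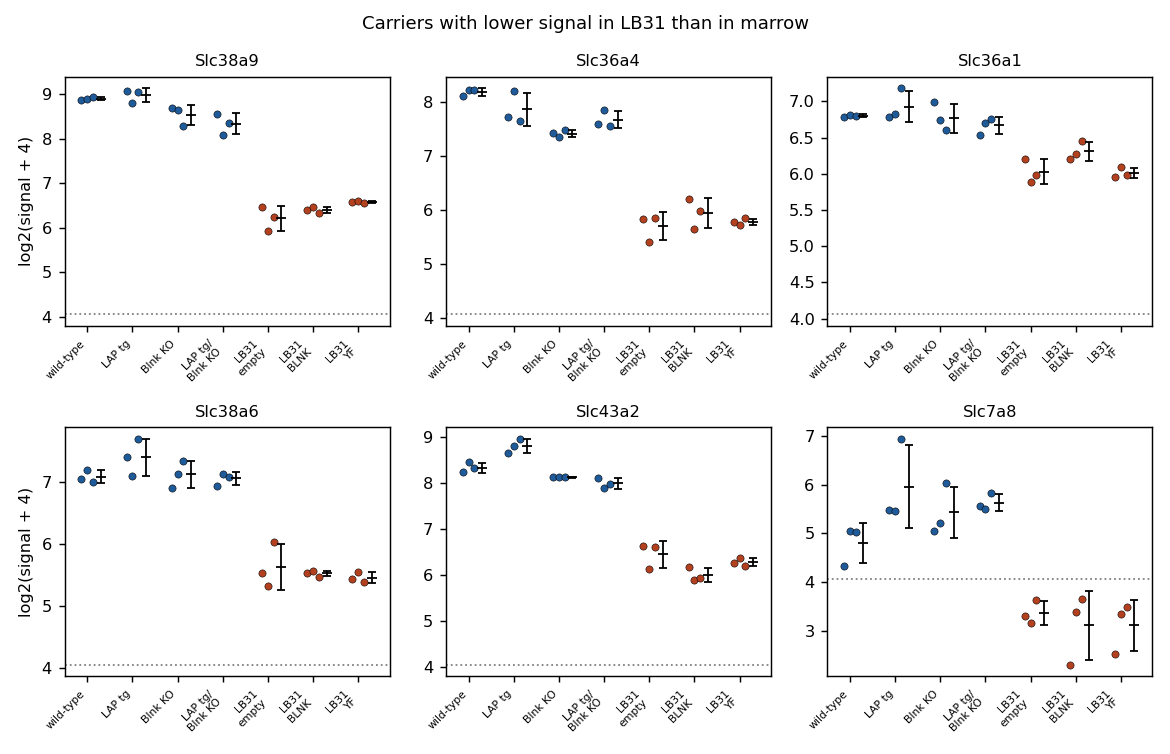
Signal of 6 carriers that were lower in LB31, log2(signal + 4) after normalization, on each array by group as labelled (blue, marrow; red, LB31), with the mean and SD of 3 arrays and a dotted line at the filter level of 4.06; axis ranges differ and do not start at 0. Slc38a9 lies between 5.93 and 6.60 on the 9 LB31 arrays and between 8.09 and 9.07 on the 12 marrow arrays.

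In the Slc38 family of glutamine and neutral amino acid carriers, 3 probe sets were higher and 13 lower of 23 against knockout-labelled marrow. Of all probe sets 29.3% were higher and 27.6% lower there. Against doubly labelled marrow 4 were higher and 14 lower, beside 28.7% and 27.1% of all. Slc38a9 alone gave 7 of the 13 lower probe sets, so the counts do not describe separate genes. Slc38a6 read 5.54, 5.33 and 6.04 in the line and 6.90, 7.13 and 7.34 in knockout-labelled marrow, lower by 2.81-fold (-1.49 ± 0.17, limma adjusted p = 1.38e-07). Slc38a2 (SNAT2), which rises in many cells deprived of amino acids, read 10.94, 10.76 and 10.85 in the line and 11.48, 11.43 and 11.43 in knockout-labelled marrow. The difference of -0.60 ± 0.08 shrank to -0.14 with no call under median centring, and that against doubly labelled marrow, -0.50, to -0.05.

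Probe sets of Slc38a1 and Slc38a10 disagreed. Slc38a1 (SNAT1), a glutamine importer, was lower by 1454764_s_at (9.94, 9.90 and 9.91 in the line; 10.72, 10.66 and 10.40 in knockout-labelled marrow; -0.68 ± 0.08) and higher by 1415903_at (9.18, 9.13 and 9.04; 8.07, 7.98 and 7.79; 1.17 ± 0.09), both called (limma adjusted p = 9.37e-08 and 3.76e-10); the first was -0.28 and still called under median centring. No direction can be given for the gene. Slc38a10, named here after its values were seen, was lower by 1456241_a_at (-0.74 ± 0.06; -0.45 under median centring) and higher by 1429979_a_at (2.52 ± 0.17) and 1429980_x_at (1.49 ± 0.25). Its remaining tested probe sets lay between -0.47 and 0.20 and were not called. The plot of Slc38 probe sets shows the 7 of Slc38a9 on 1 side of zero and those of Slc38a1 and Slc38a10 on both.

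**Figure D3:**
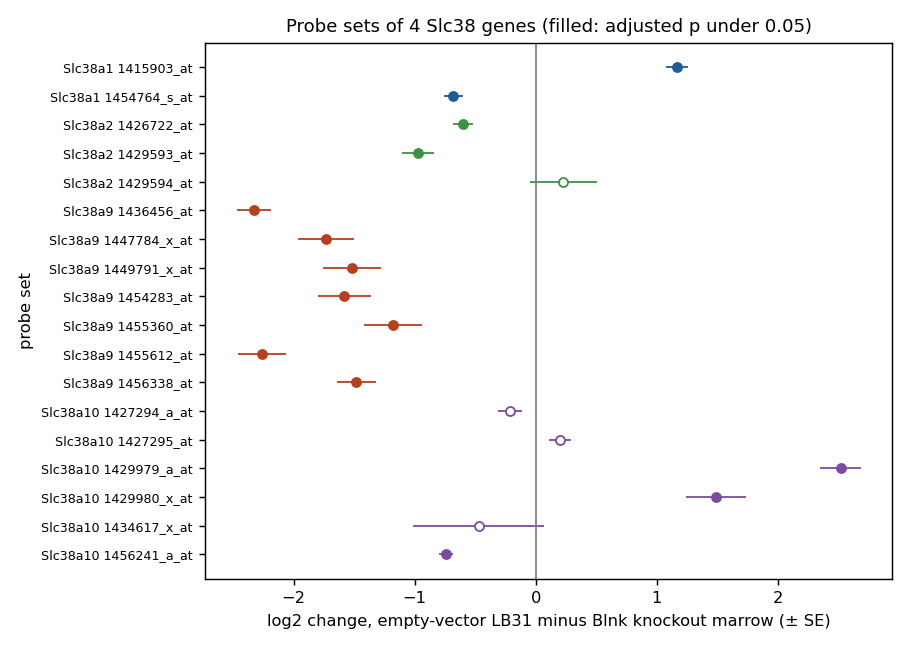
Difference of empty-vector LB31 from knockout-labelled marrow, log2, for each tested probe set of 4 Slc38 genes, with its SE as a bar; filled points were called. The 7 probe sets of Slc38a9 run from -2.33 to -1.18, while those of Slc38a10 run from -0.74 to 2.52.

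A further set of carriers read under the filter level in LB31, several of them known from myeloid, erythroid or epithelial cells. Slc38a5 (SNAT5, glutamine, known from erythroid precursors) read 3.79, 2.30 and 3.21 in the line and 5.63, 6.35 and 7.23 in knockout-labelled marrow, a difference of -3.30 ± 0.51 (limma, adjusted p = 8.35e-06). Slc6a20a, a proline carrier, differed by -2.54 ± 0.53, Slc7a2 (CAT2, arginine, known from macrophages) by -2.25 ± 0.42, Slc7a8 (LAT2) by -2.06 ± 0.41, Slc1a3 (EAAT1, glutamate) by -1.78 ± 0.38 and the serotonin transporter Slc6a4 by -1.68 ± 0.41, and each mean in LB31 lay under the filter level. Folds to such dim signals depend on the pseudocount: with 16 in place of 4 the differences of Slc6a20a, Slc7a2, Slc7a8 and Slc1a3 were -1.41, -1.30, -1.31 and -0.85, all still called. Slc7a7 (y+LAT1, known from macrophages and epithelia) stayed measurable, at 5.59, 5.32 and 5.76 in the line and 6.97, 6.76 and 6.63 in knockout-labelled marrow, lower by 1.23 on the log2 scale (-1.23 ± 0.20; -1.92 as deposited). Slc43a2 (LAT4), a carrier of branched amino acids, read 6.64, 6.13 and 6.61 in the line and 8.13, 8.14 and 8.14 in knockout-labelled marrow, a difference of -1.68 ± 0.13 (adjusted p = 1.84e-10).

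Markers of other cell types moved with these differences. Summed over each list, the marrow arrays held 16047 to 62076 for 9 neutrophil markers, 4939 to 19114 for 9 monocyte and macrophage markers, 1412 to 9827 for 6 erythroid markers and 2695 to 10999 for 7 megakaryocyte markers. The LB31 arrays held 37.4 to 116, 150 to 306, 57 to 109 and 91.7 to 164, and in empty-vector LB31 S100a9, Lcn2, Ltf, Itgam, Ccr2, Fcgr3, Mpeg1, Alas2, Slc4a1, Ppbp, Itgb3 and Vwf were at or under the filter level on every array. The erythroid marker Hba-a1 was at or under it in every marrow group as well. Their part in the lower signals of Slc38a5, Slc6a20a, Slc7a2, Slc7a8, Slc1a3, Slc6a4 and Slc7a7 was not tested. Within marrow the third LAP array, with the highest neutrophil, monocyte and erythroid sums, also had the highest readings of its group for Slc38a5 (8.51; 6.91 and 5.77 on the others), Slc6a20a (7.29; 5.84 and 4.51), Slc7a8 (6.94; 5.48 and 5.47) and Slc7a2 (6.52; 5.54 and 5.31). Slc6a4 did not have the highest reading of its group on that LAP array, and Slc1a3 and Slc7a7 are not compared on it here. In such bulk samples, fewer cells of a type and less RNA per cell cannot be told apart.

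Not every carrier separated the line from marrow. Slc43a3 read 9.47, 9.55 and 9.48 in LB31 and 9.61, 9.15 and 9.56 in knockout-labelled marrow, and Slc1a5 (ASCT2, glutamine) read 9.67, 9.85 and 9.87 and 9.98, 9.74 and 9.48; both groups overlapped. Under median centring both were called higher (0.36, limma adjusted p = 0.0471, and 0.42, 0.00777). Against doubly labelled marrow Slc1a5 was higher by 0.98 ± 0.12 (limma, adjusted p = 6.06e-07; 0.58 and still called as deposited); its signal was lower there than in the other marrow groups. Slc6a6 (taurine) was not called against knockout-labelled marrow by 1437149_at, where the deposited values turned a difference of 0.05 to -0.44 (adjusted p = 0.0374), and was higher by 1421346_a_at (0.87). Slc6a8 was not called in either comparison, but against doubly labelled marrow its difference was called lower on the deposited values (-1.42, adjusted p = 0.000676), under median centring (-0.75, 0.0478) and without doubly labelled array 1 (-0.96) or LB31 array 2 (-0.92). Slc43a3 too was called lower than in doubly labelled marrow on the deposited values (-0.57) and with quantile normalization within the fit (-0.22). Slc7a11, the light chain of the cystine exchanger, read from 2.33 to 4.17 over all 21 arrays and was called in no comparison, so these arrays hardly measured it.

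**Figure D4:**
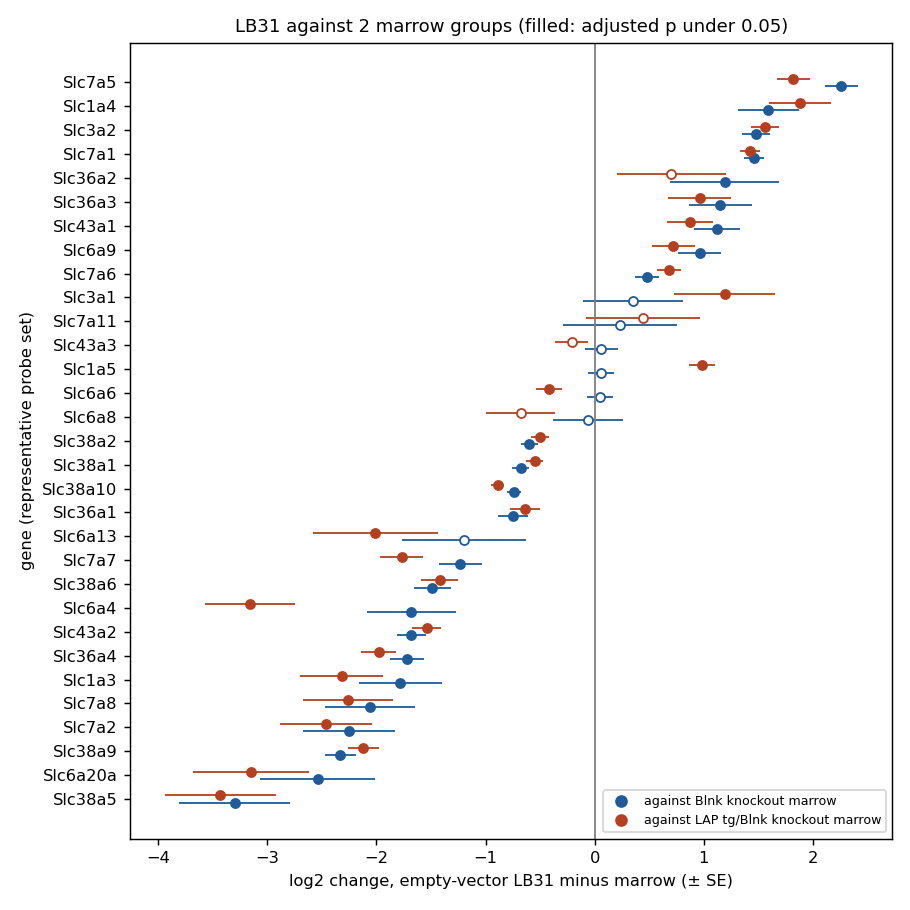
Difference of empty-vector LB31 from knockout-labelled marrow (blue) and from doubly labelled marrow (red), log2 ± SE, for 31 member genes by their representative probe set; filled points were called, and both differences use the same LB31 arrays. Slc7a5 lies at 2.26 and 1.82 and Slc38a5 at -3.30 and -3.43.

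Genes around the carriers are given from lists chosen with earlier results of these data known. Of 28 ATF4 target and amino acid response genes tested, 23 were higher and 4 lower in LB31 than in knockout-labelled marrow, with a median of 1.38 against 0.08 for all probe sets. Asns (asparagine synthetase) was higher by 4.52, Shmt2 (mitochondrial serine metabolism) by 3.99 and Xpot (tRNA export) by 2.21, while Ddit4 differed by -1.19 and Cebpg by -0.71. Of 7 cycling-cell markers 3 were higher and 3 lower, with a median of 0.20. Of 31 genes of mTORC1 amino acid sensing, 14 were higher and 11 lower with a median of 0.01, where 29.3% of all probe sets were higher and 27.6% lower. Rragd, a Rag GTPase, differed by -4.71 ± 0.28 and Sesn3, a sestrin, by -3.03 ± 0.11, and Mtor was higher by 1.02. Of 17 other amino acid and peptide carriers, 8 were higher and 4 lower with a median of 0.59: the mitochondrial carriers Slc25a44 (branched amino acids) and Slc25a13 (aspartate and glutamate) differed by 2.04 and -3.24. Of 10 genes of cystine use and glutathione synthesis, 6 were higher and 2 lower with a median of 0.65. Txnrd1 (thioredoxin reductase) was higher by 2.76 and Gclc (glutamate-cysteine ligase) lower by 0.76 on the log2 scale (-0.76). Against doubly labelled marrow 2 of these 10 were higher and 3 lower, with a median of 0.20.

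Within marrow, Slc7a5 was higher in every changed genotype than in wild-type. It read 6.92, 6.63 and 7.27 in wild-type marrow, 8.04, 7.64 and 8.32 with LAP, 7.55, 7.57 and 7.85 with the knockout label and 8.29, 8.02 and 8.0 with both. No changed group overlapped wild-type. The differences from wild-type were 1.06 ± 0.19 for LAP (limma, adjusted p = 0.0106), 0.72 ± 0.19 for the knockout label (0.0218) and 1.16 ± 0.19 for both (0.000431). The LAP call was not kept without wild-type array 1 (1.05, adjusted p = 0.0509), and the knockout call without wild-type array 1 or 2 (0.71 and 0.57) or knockout-labelled array 3 (0.62), nor without a trend (adjusted p = 0.0504). Slc3a2 read 8.37 ± 0.10 (SD, n = 3) in wild-type marrow, 8.83 ± 0.29 with LAP, 8.46 ± 0.10 with the knockout label and 8.38 ± 0.30 with both, and none of its marrow comparisons was called. Its difference between both changes and LAP, -0.45, was called with the replicate block (adjusted p = 0.0204), with 1 fit over all groups (0.0127), with the 60th percentile filter (0.0476) and without LAP array 2 or doubly labelled array 3 (-0.53 and -0.60); that between LAP and wild-type, 0.45, was called with 1 fit over all groups (0.0398).

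In knockout-labelled against wild-type marrow 5 member probe sets were higher and 4 lower of 70, or 12.9%, against 12.7% of all 30128 (6.24% higher, 6.45% lower). The deposited values gave 21 higher and 0 lower with a median of 0.31 over all probe sets, and median centring 3 and 6. Slc43a3, the purine base carrier, read 8.16, 7.82 and 8.50 in wild-type and 9.61, 9.15 and 9.56 in knockout-labelled marrow, higher by 2.43-fold (1.28 ± 0.19, limma adjusted p = 0.000512). Slc7a7 read 5.68, 5.79 and 5.91 in wild-type and 6.97, 6.76 and 6.63 with the knockout label, 1.99-fold higher (0.99 ± 0.19, adjusted p = 0.00383). Slc36a4 was lower, at 7.43, 7.36 and 7.48 against 8.12, 8.24 and 8.23 (-0.77 ± 0.14, adjusted p = 0.00278; -0.45 with no call on the deposited values). Slc38a2 was higher by 0.38 ± 0.09, 0.62 as deposited, a call lost under median centring (0.26) and without wild-type array 2 (0.36) or knockout-labelled array 1 (0.37). Of 28 amino acid response genes 10 were higher and 0 lower in this comparison, among them Phgdh (serine synthesis, 0.98) and Aldh18a1 (proline synthesis, 0.90). Their median was 0.14 by 1 probe set per gene, against 0.00 for all probe sets. In a fit with 1 probe set per gene, 17.1% of all were called. Of 7 plasma-cell markers 4 were lower and 1 higher here (median -0.42), and their part was not tested.

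The LAP transgene alone was called in 4 of the 70 probe sets, all higher, or 5.71%, against 2.6% of all (1.23% higher, 1.36% lower). Apart from Slc7a5 these were Slc6a9, Slc43a2 and a probe set of Slc38a10 (1427294_a_at, 0.56). The count was 0 without wild-type array 1 and 1 without wild-type array 3 or LAP array 3. Slc43a2 read 8.24, 8.46 and 8.33 in wild-type and 8.66, 8.81 and 8.97 in LAP transgenic marrow, higher by 0.47 ± 0.11 (limma, adjusted p = 0.0367); leaving out any of these arrays except LAP array 1 ended the call (0.39 to 0.53), as did the deposited values (0.34, adjusted p = 0.169), median centring (0.36, 0.0851), the replicate block (0.0546) and the fit without a trend (0.0769). Slc6a9 was higher by 0.94 ± 0.23 (adjusted p = 0.0481), with its highest reading, 7.51, on the LAP array that stood apart and 6.81 and 6.50 on the others. Leaving out any array but LAP array 2 ended that call (0.66 to 1.14), as did the deposited values (adjusted p = 0.0948), normalization within the fit (0.0517), no filter (0.0727) and no trend (0.101).

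With both changes, 13 member probe sets were higher and 10 lower than in wild-type marrow, or 32.9%, against 25.2% of all (12.6% higher, 12.6% lower). The count was 15 without wild-type array 2 or 3, 12 without doubly labelled array 2 and 13 without doubly labelled array 3; the deposited values gave 22 higher and 1 lower with a median of 0.33 over all probe sets, and median centring 10 and 11. Slc43a3 was higher by 2.94-fold (9.83, 9.74 and 9.58; 1.56 ± 0.19, limma adjusted p = 3.77e-05) and Slc7a7 by 2.88-fold (7.05, 7.37 and 7.55; 1.53 ± 0.19, adjusted p = 5.44e-05). Slc6a4, the serotonin transporter of platelets, read 7.44, 7.21 and 6.48 in doubly labelled marrow and 4.75, 5.32 and 5.20 in wild-type, 3.88-fold higher (1.95 ± 0.29, adjusted p = 0.000197). It was also higher than in knockout-labelled marrow (5.21, 5.40 and 6.05; 1.49 ± 0.29, adjusted p = 0.00692) and than in LAP transgenic marrow (5.33, 5.99 and 5.98; 1.28 ± 0.29, adjusted p = 0.00571). The 7 megakaryocyte markers summed to 10999, 8487 and 7281 on the doubly labelled arrays. They summed to 2695 to 2793 on wild-type, 3204 to 5666 on LAP and 2794 to 6025 on knockout-labelled arrays. Within a group, arrays ranked as for Slc6a4 in doubly labelled and knockout-labelled marrow, but not in wild-type or LAP marrow. The part of these markers in the Slc6a4 result was not tested.

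**Figure D5:**
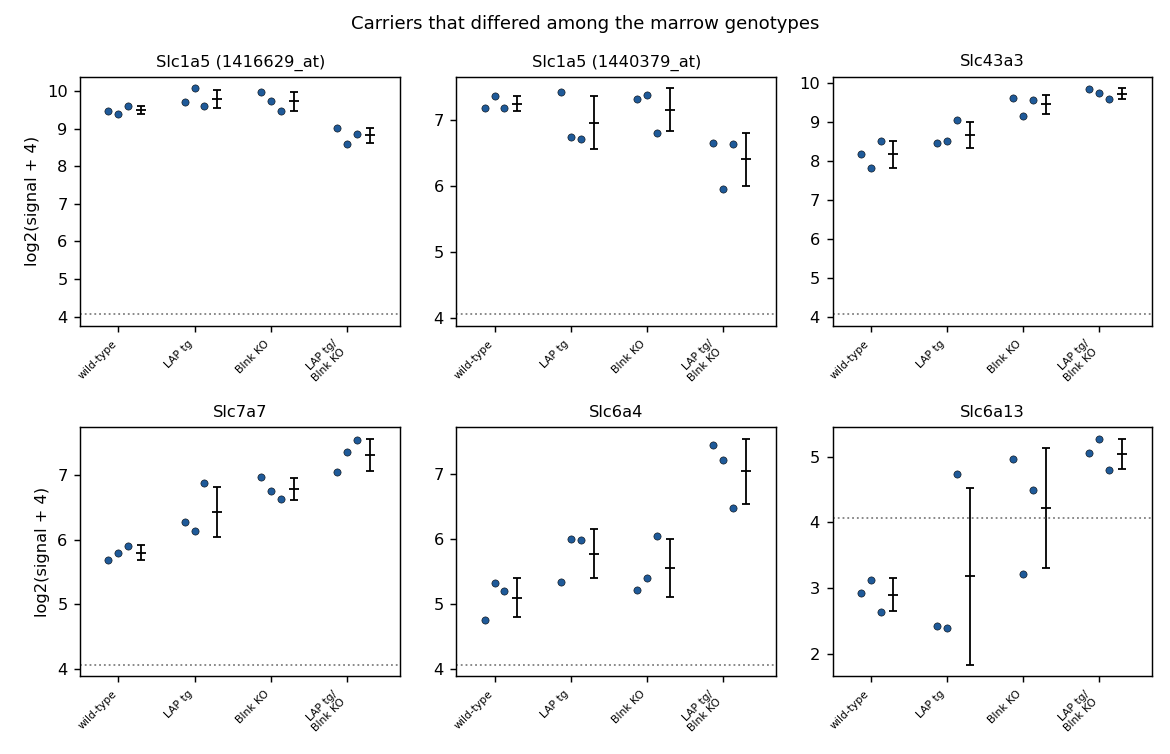
Signal of 5 carriers, Slc1a5 by both of its plotted probe sets, in the 4 marrow groups as labelled, log2(signal + 4) after normalization, with each array as a point, the mean and SD of 3 arrays and a dotted line at the filter level of 4.06; axis ranges differ and do not start at 0. Slc1a5 is lowest in doubly labelled marrow, at 8.59 to 9.01 by 1416629_at, while Slc6a4 is highest there, at 6.48 to 7.44.

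Smaller or dimmer differences were also called in that comparison. Slc6a9 was higher, a call lost without wild-type array 1 (0.75) or 2 (0.68) or doubly labelled array 2 (0.77) or 3 (0.80). Slc38a2 was higher by 0.29, a call lost under median centring (0.16) and without any array except doubly labelled array 1. Slc43a2 was lower (-0.34), although higher with LAP alone. Its call was lost on the deposited values (-0.05) and without wild-type array 2 or 3 or doubly labelled array 2 or 3. Slc6a13 (GABA and taurine) read 5.05, 5.26 and 4.80 in doubly labelled marrow and 2.93, 3.13 and 2.64 in wild-type, under the filter level; the difference of 2.14 ± 0.58 (limma, adjusted p = 0.0147) was 1.21 with a pseudocount of 16, and was not called without doubly labelled array 2 (2.02, adjusted p = 0.0551). Slc6a8 (creatine) was higher by 1.19 ± 0.31, and by 1.18 by its second probe set, with calls lost without wild-type array 2 (0.90) or doubly labelled array 2 or 3 (1.07 and 1.02). Slc43a1 was higher by 0.84 ± 0.27, not called without wild-type array 1 or 3 (0.64 and 0.86) or doubly labelled array 2 or 3 (0.81 and 0.78). Slc38a9 was lower by 6 of its 7 probe sets, from -0.79 to -0.57. By 1436456_at it read 8.56, 8.09 and 8.36 against 8.87, 8.90 and 8.93 in wild-type (-0.57 ± 0.14, adjusted p = 0.00744), and on the deposited values -0.26 with no call. Slc36a4 was lower by 0.52 on the log2 scale (-0.52 ± 0.14; -0.20 with no call as deposited), a call lost without wild-type array 2 or 3 or doubly labelled array 1 or 3 (-0.50 to -0.47). Of the 28 amino acid response genes 12 were higher and 1 lower, with a median of 0.26 by 1 probe set per gene. All probe sets had a median of 0.01, and 12.6% went each way. In a fit with 1 probe set per gene, 31.2% of all were called. Trib3 differed by 2.03 and Psat1 (serine synthesis) by 1.26. In the same comparison 6 of 7 cycling-cell markers were higher (median 0.51), summing to 18662 to 22291 on the doubly labelled and 13719 to 14955 on the wild-type arrays. Of 7 plasma-cell markers tested 5 were lower and 1 higher (median -1.0), Tnfrsf17 lying at or under the filter level on the doubly labelled arrays. The list of 8 nevertheless summed to 9422 to 9752 there and 8087 to 8401 in wild-type. The part of either list in these differences was not tested.

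Adding the LAP transgene to the knockout label changed 2 member probe sets of 70, 1 higher and 1 lower, or 2.86%, against 5.2% of all (2.03% higher, 3.17% lower); 5 were called without knockout-labelled array 3. These were Slc6a4 (above) and Slc1a5. By 1416629_at Slc1a5 read 9.48, 9.40 and 9.59 in wild-type marrow, 9.70, 10.07 and 9.59 with LAP, 9.98, 9.74 and 9.48 with the knockout label and 9.01, 8.59 and 8.86 with both. The doubly labelled arrays lay below all 9 others. The LAP effect in knockout-labelled marrow was -0.91 ± 0.15 (1.88-fold lower, limma adjusted p = 0.00216), and it differed from the LAP effect in marrow without that label by -1.21 ± 0.21 (interaction, adjusted p = 0.0112). This was the only member among the interactions called, 1 of 70 or 1.43%, against 1.18% of all (0.85% lower); 2 were called without wild-type array 2 or knockout-labelled array 3. The interaction was -0.97 with an adjusted p of 0.061 on the deposited values. The second probe set, 1440379_at, read 6.64, 5.95 and 6.63 in doubly labelled and 7.17, 7.36 and 7.18 in wild-type marrow (-0.83, adjusted p = 0.0162), but its interaction of -0.46 ± 0.33 was not called. Markers of plasmacytoid dendritic cells, which carry B220, also had their lowest sum with both changes. The 8 summed to 3048 to 3393 on the doubly labelled arrays and to 6501 to 10232 on the other marrow arrays. Of these 8, 5 were lower and 0 higher than in knockout-labelled marrow (median -1.49). Against wild-type 5 were lower and 2 higher (median -0.99), and against LAP marrow 3 lower and 1 higher (median -0.37). In the interaction 2 were lower and 0 higher (median -0.91). The 8 markers summed to 2434 to 2538 in empty-vector LB31, where Slc1a5 read 9.67 to 9.87. Their part in the marrow result was not tested.

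Doubly labelled against LAP transgenic marrow gave 6 member probe sets higher and 9 lower of 70, or 21.4%, against 21.2% of all (11.3% higher, 9.86% lower). The deposited values gave 21 higher and 3 lower with a median of 0.40 over all probe sets, and median centring 5 and 8. Slc1a5 fell by 0.97 on the log2 scale (-0.97 ± 0.15, limma adjusted p = 0.000361; -0.52 and still called as deposited), Slc43a2 by 0.81 (8.12, 7.89 and 7.99 against 8.66, 8.81 and 8.97; adjusted p = 0.000106; -0.39 as deposited) and Slc38a9 by 0.64 (-0.22 with no call as deposited). Slc43a3 was higher by 1.05 ± 0.19 and Slc7a7 by 0.89 ± 0.19. Slc1a4 was higher by 1.47 ± 0.36 (adjusted p = 0.0101), from 2.50, 2.77 and 3.50, all under the filter level, to 4.11, 4.75 and 4.31. That difference was 0.75 with a pseudocount of 16 and not called without doubly labelled array 2 (1.28, adjusted p = 0.0539). Slc6a13 was higher by 1.85 ± 0.58, a call lost without any of the 6 arrays except LAP array 3 (1.46 to 1.96).

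In the line, the vectors moved carriers little. BLNK-labelled against empty-vector LB31 gave 2 member probe sets higher and 7 lower of 70, or 12.9%, against 11.4% of all 29478 (5.57% higher, 5.82% lower); 4 were called without BLNK array 3 and 5 without BLNK array 1. The deposited values gave 1 higher and 0 lower, and median centring 4 and 0, with a median over all probe sets of 0.10 and 0.11. Slc43a1 read 8.70, 8.80 and 8.76 with BLNK, 9.06, 9.08 and 9.02 with the empty vector and 9.15, 9.04 and 8.98 with YF. The BLNK arrays were below both other groups, each by 0.30 ± 0.06 on the log2 scale (-0.30, limma adjusted p = 0.00428 and 0.00556). These calls were lost on the deposited values (-0.15 and -0.55) and, against the empty vector, under median centring (-0.14). With 1 fit over all groups both were lost (limma adjusted p = 0.534 and 0.661), as was that against YF without a trend (0.0609). Slc7a1 read 10.30, 10.26 and 10.31 with BLNK and 10.42, 10.60 and 10.48 with the empty vector (-0.21 ± 0.05, adjusted p = 0.0136; not called without BLNK array 2, -0.20). Slc38a1 was lower by both of its probe sets (-0.16 and -0.18; the first not called without empty-vector array 3 or any BLNK array, -0.17 to -0.15). The directions of Slc7a1 and of Slc38a1 by 1454764_s_at turned to 0.02 and 0.05 on the deposited values and to 0.04 and 0.07 under median centring, so these differences were within the choice of scale.

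Slc1a4 was the member gene higher with BLNK by its representative probe set, at 7.03, 6.51 and 6.75 against 6.34, 6.29 and 6.18 (0.49 ± 0.14, limma adjusted p = 0.0336; 0.36 to 0.50 and not called without empty-vector array 2 or 3 or BLNK array 1 or 3; 0.61 and not called as deposited, and not called without a filter, without a trend or with 1 fit over all groups). A dim probe set of Slc6a6, 1420148_at, read 5.01, 4.25 and 5.22 with BLNK and 3.90, 2.47 and 2.98 with the empty vector (1.71, adjusted p = 0.0282), while its representative read 8.46 ± 0.12 and 8.30 ± 0.18 (SD, n = 3) and was not called. The remaining calls were 3 probe sets of Slc38a10, from -0.36 to -0.28. Slc7a5 read 9.77, 9.73 and 9.77 with BLNK, 9.81, 9.76 and 9.72 with YF and 9.79, 10.02 and 9.94 with the empty vector, and was called in no comparison of vectors with all arrays. Without empty-vector array 1 it was called lower with BLNK (-0.22, limma adjusted p = 0.00496) and with YF (-0.22, 0.0137), and Slc3a2 was called lower with YF (-0.27, 0.00985). Against the YF vector, BLNK gave 2 member probe sets lower, Slc43a1 and a probe set of Slc38a10, or 2.86%, against 6.34% of all; 1 was called without any BLNK array or YF array 1 or 3. YF against empty vector gave 0 of 70 by limma, against 0.227% of all, with 15 at an unadjusted p under 0.05. Without empty-vector array 1, whose median deposited intensity was 19.5 against 15.9 and 15.5 on the other empty-vector arrays, 6 of 69 were called, but so were 7.13% of all probe sets. The deposited values gave 1 and median centring 2, all higher, where the median of all probe sets was 0.31 and 0.21.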

How the data were processed

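The authors deposited 1 intensity per probe set and array, linear and never negative; the submitters' processing notes name MAS5 without a version, and no label says whether arrays were scaled. The median intensity of an array ran from 15.3 to 31.4 as deposited, and the number of arrays limits the precision. It followed the groups, with means of 21.5 (wild-type), 21.1 (LAP), 28.8 (knockout-labelled), 29.3 (doubly labelled), 17 (empty vector), 16.7 (BLNK) and 18.4 (YF). The 3′ to 5′ ratio of the Gapdh control probe sets averaged 0.79, 0.97, 0.84, 0.86, 0.72, 0.71 and 0.74 in the same order. Differences in intensity or in that ratio cannot be told apart from the groups. Here 4 was added, log2 was taken, all 21 arrays were quantile normalized together and 64 control probe sets were left out. Quantile normalization removes any true difference in total message between groups. Of the other probe sets, 34945 had 1 symbol in the platform annotation, 932 several and 9160 none here; all 63 member genes matched RefSeq by Entrez ID with no symbol changed.

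limma 3.58.1 in R 4.3.3 (lmFit, eBayes with trend) was fitted over the 12 marrow arrays, the 9 LB31 arrays and all 21 arrays, with groups from the labels and no covariates, for 11 comparisons. The procedure was tested on simulated data. Named were members called with a log2 change of at least 1 in any comparison, and a set list of carriers. The members, lists and tests were chosen with earlier results of these data known.

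Alternatives were the deposited values without normalization, median centring, normalization within each fit, pseudocounts of 1 and 16, no filter or the 60th percentile, 1 probe set per gene, no trend, 1 fit over all groups, replicate number as a block and each array left out. Promoters came from RefSeq's GRCm38.p6 table. That they are written along the gene's strand was checked: TATAAA lay where TATA boxes lie in 292 plus-strand windows as written and in 59 when reversed, and in 284 and 52 minus-strand windows.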

Additional observations from a re-analysis of the deposited data

Results flagged for a closer look

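The effect of the LAP transgene on Slc1a5, the glutamine carrier ASCT2, differed between marrow with and without the Blnk knockout label by a test of the difference itself. By 1416629_at the change with LAP in knockout-labelled marrow, minus that in marrow without the label, was -1.21 ± 0.21 on the log2 scale (limma, adjusted p = 0.0112). It kept its direction under all alternatives run and its call under all but the deposited values (-0.97, adjusted p = 0.061) and the fit without a trend (-1.21, adjusted p = 0.062). The second tested probe set of the gene gave -0.46 ± 0.33, which was not called. The 8 plasmacytoid dendritic cell markers had a median interaction of -0.91, with 2 called lower. Groups of 3 arrays were not screened for outlying samples.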

How the results depend on the processing

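Of 311 results on named genes 88 were called, and 51 of these kept their call and direction under every alternative run; over 5380 alternative values 5187 kept side and direction, 124 lost a call, 64 gained one and 5 turned. The turned values were Slc38a1 (0.05 on the deposited values, 0.07 under median centring) and Slc7a1 (0.02 and 0.04) for BLNK against empty vector, and Slc6a6 for LB31 against knockout-labelled marrow (-0.44 on the deposited values). Counts of member probe sets called moved by over 1.5 times as follows; the cause was not tested, apart from the fewer probe sets tested with 1 per gene. The deposited values gave 21 for the knockout label against wild-type, 1 for LAP, 24 for both labels against LAP, 0 for the interaction, 1 each for BLNK and for YF set against the empty vector, and 0 between BLNK and YF. Median centring gave 4 and 2 for BLNK and for YF set against the empty vector, and 1 between BLNK and YF. With 1 probe set per gene the counts were 5 (knockout label), 13 (both labels against wild-type), 9 (both against LAP), 4 (BLNK against empty vector), 1 (BLNK against YF), 27 and 30 (LB31 against knockout-labelled and doubly labelled marrow). Without a trend they were 1 (LAP), 0 (interaction), 1 (BLNK against empty vector) and 0 (BLNK against YF). With 1 fit over all groups they were 7 (LAP), 4 (both labels against the knockout label), 3 (BLNK against empty vector) and 0 (BLNK against YF). Leaving out 1 array gave 7 to 8 for the knockout label, 0 to 4 for LAP, 12 to 20 for both labels against wild-type, 2 to 5 against the knockout label, 10 to 16 against LAP, 1 to 2 for the interaction, 4 to 11 for BLNK and 0 to 6 for YF set against the empty vector, 1 to 2 between BLNK and YF, and 42 to 46 and 47 to 54 for LB31 against knockout-labelled and doubly labelled marrow. Same-numbered arrays deviated together in 1 of 18 marrow pairs (replicate number 3, 0.26) and in 0 of 9 LB31 pairs (correlation over 0.1). Pairing by number was thus hardly seen, but such a cut cannot exclude it. With the replicate number as a block the counts were 10, 4, 23, 3, 16, 1, 8, 0, 2, 45 and 52, against 9, 4, 23, 2, 15, 1, 9, 0, 2, 45 and 52 without it. Signals at or under 4.06 log2 are close to background, so differences of Slc7a11, of Slc1a4 by 1423549_at and 1423550_at and against LAP marrow, Slc3a1, Slc36a2, Slc6a13 and the LB31 readings of Slc38a5, Slc6a20a, Slc7a2, Slc7a8 and Slc1a3 are measured on at most 1 side.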

Other observations

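Members outside those described, chosen after their values were seen, also differed between LB31 and marrow. Slc6a2, the noradrenaline transporter, read 5.73, 6.49 and 6.09 in empty-vector LB31 and 5.68, 5.51 and 4.87 in knockout-labelled marrow by 1447311_at (0.75 ± 0.22, limma adjusted p = 0.00656), and was higher by 1.13 ± 0.30 by 1421641_at. Slc7a4 was higher than in knockout-labelled marrow by 0.57 ± 0.21, and Slc38a7, a glutamine carrier of lysosomes, and Slc7a10 (Asc-1) were higher than in doubly labelled marrow by 0.58 ± 0.21 and 0.91 ± 0.37. Slc7a6os, which is not a carrier, was lower by 1429596_at (-0.53 ± 0.16) and higher by 1440303_at (0.48 ± 0.19) than in knockout-labelled marrow, so its probe sets gave no common direction.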
